A study of Homo sapiens with 12 samples.

Results

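The snoRNA host genes are genes whose introns carry small nucleolar RNAs (snoRNAs). The set comprised every gene of the count table that the GENCODE v44 annotation names SNHG (small nucleolar RNA host gene) followed by digits, together with *GAS5*, *EPB41L4A-AS1*, *ZFAS1*, *TAF1D*, *CCAR1*, *NOP56*, *NCL* and *EIF4A2*. It held 36 of the 58037 genes of the table. Of these, 31 are annotated as long noncoding RNAs (lncRNAs) and are called noncoding hosts, and 5 (*NCL*, *NOP56*, *EIF4A2*, *CCAR1* and *TAF1D*) are protein-coding and are called coding hosts. All 36 genes were matched by identifier.

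RNA-seq was performed on poly(A)-selected RNA of wild-type HCT116 cells, an epithelial line from a human colorectal carcinoma, with 3 samples in each of 4 conditions. The first condition was the vehicle DMSO. The others were Nutlin-3a at 10 μM, NVP-2 at 20 nM, and both drugs together at these doses, and all cells were collected at 8 h. Nutlin-3a activates p53 by blocking MDM2, and NVP-2 inhibits CDK9, the kinase of the elongation factor P-TEFb. In the table analysed here, the 12 columns named for these samples were identical, with 0 genes whose count differed between any of them. They were therefore treated as 1 HCT116 profile of unknown treatment, and neither an effect of either drug nor a spread between replicates was computed. The profile summed to 22720718 counts. Intervals below are 95% Wilson intervals of the count and cover counting error only. Counts are given as CPM, the count relative to the column total, and, where genes are compared with each other, as RPKM, which also divides by the length of the merged annotated exons. Of the 8 colorectal epithelial markers examined, *KRT8* (RPKM 514), *KRT18* (491), *KRT19* (413), *EPCAM* (182) and *CDH1* (10.7) were above an RPKM of 1, whereas *KRT20* (0.851), *CDX2* (0.813) and *VIL1* (0.0255) were below it. The 6 markers of blood, fibroblasts and endothelium had RPKM values between 0 and 0.972, with *COL1A1* the highest and *PTPRC* and *COL1A2* at 0 counts.

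SnoRNAs guide the chemical modification of ribosomal RNA in the nucleolus. Those of the box C/D class direct ribose methylation, and those of the box H/ACA class direct the conversion of uridine to pseudouridine. In human cells most of them are not transcribed from genes of their own. They are released from introns after the host transcript has been spliced, and exonucleases trim the intron back to the snoRNA with its bound proteins. In a coding host the spliced exons go on to make a protein, often one of the ribosome or nucleolus. In a noncoding host the exons carry no long reading frame, and many such spliced RNAs are degraded in the cytoplasm by nonsense-mediated decay. Many hosts of both kinds start with a run of pyrimidines, the terminal oligopyrimidine (TOP) tract, through which translation of the mRNA is tied to growth signals.

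The following sequences show what the leading hosts carry in their introns. Each is read from hg38 on the strand of the host, from the 5′ to the 3′ end, with box C (TGATGA) and box D (CTGA) of the box C/D snoRNAs, or the ACA box of the box H/ACA snoRNA, in capitals. *SNORD49A* and *SNORD49B* come from *SNHG29*, the noncoding host with the most counts, *SNORD44* and *SNORD76* from *GAS5*, *SNORD25* from *SNHG1*, and *SNORD20* and *SNORD82* from *NCL*, the most abundant coding host. *SNORD104* from *SNHG25* is shown because its own row in the table held the most reads of all snoRNAs in these hosts, and *SNORA24* from *SNHG8* represents the box H/ACA class.
*SNORD49A* (chr17:16440036-16440106, plus strand): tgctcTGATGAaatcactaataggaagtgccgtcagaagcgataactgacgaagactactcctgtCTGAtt
*SNORD49B* (chr17:16439505-16439576, plus strand): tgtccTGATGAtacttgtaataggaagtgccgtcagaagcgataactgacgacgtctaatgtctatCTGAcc
*SNORD44* (chr1:173865968-173866028, minus strand): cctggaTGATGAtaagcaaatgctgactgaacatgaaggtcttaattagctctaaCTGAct
*SNORD76* (chr1:173866635-173866715, minus strand): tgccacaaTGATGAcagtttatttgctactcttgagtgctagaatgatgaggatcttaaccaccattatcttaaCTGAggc
*SNORD25* (chr11:62855564-62855632, minus strand): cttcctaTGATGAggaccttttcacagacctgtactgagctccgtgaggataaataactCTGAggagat
*SNORD20* (chr2:231456444-231456523, minus strand): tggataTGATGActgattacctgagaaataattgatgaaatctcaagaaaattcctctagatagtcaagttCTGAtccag
*SNORD82* (chr2:231460371-231460440, minus strand): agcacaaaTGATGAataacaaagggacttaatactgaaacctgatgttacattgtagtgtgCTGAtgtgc
*SNORD104* (chr17:64146083-64146152, plus strand): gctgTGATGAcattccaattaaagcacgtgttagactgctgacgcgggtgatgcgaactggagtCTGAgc
*SNORA24* (chr4:118279190-118279320, plus strand): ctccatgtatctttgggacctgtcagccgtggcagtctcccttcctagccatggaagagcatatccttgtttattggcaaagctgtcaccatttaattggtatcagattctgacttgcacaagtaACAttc

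*SNORD49A* and *SNORD49B* lie in the same intron of *SNHG29* and share an unbroken run of 35 bases. Between the 3 snoRNAs of *ZFAS1*, the longest run shared by *SNORD12* and *SNORD12C* was 18 bases. Across the snoRNA entries of the hosts other than *SNHG14*, box C within the first 20 bases and box D within the last 15 were both found in 33 of 49 entries named SNORD. An ACA at 2 to 4 bases from the end was found in 26 of 38 entries named SNORA. Over all GENCODE snoRNAs the shares were 62.0% of 313 SNORD entries for both boxes and 73.8% of 214 SNORA entries for ACA. In the 527 windows of the same length beside these entries, 0% held both boxes and 4.17% the ACA. Only these exact letters on the annotated strand were searched, so an entry without a match, such as *SNORD26* of *SNHG1*, may carry a variant box.

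The most abundant host was *NCL*, which codes for nucleolin, a major RNA-binding protein of the nucleolus. It had 49594 counts, or 2183 CPM (2164 to 2202), and an RPKM of 245 (243 to 247), and ranked 30th in counts among the 19629 protein-coding genes. *NOP56*, a core protein of the box C/D snoRNP, had 8435 counts and an RPKM of 75.0 (73.4 to 76.6). The remaining coding hosts were lower and, with merged exon lengths, close to each other. *EIF4A2*, a DEAD-box helicase of translation initiation, had 2451 counts and an RPKM of 17.6 (16.9 to 18.3). *CCAR1*, a transcriptional coactivator, had 1802 counts and an RPKM of 13.1 (12.5 to 13.7). *TAF1D*, a subunit of the factor that brings RNA polymerase I to ribosomal DNA, had 2181 counts and an RPKM of 12.04 (11.5 to 12.6). The intervals of *CCAR1* and *TAF1D* overlapped in RPKM, although that of *TAF1D* was the higher in CPM, at 96.0 CPM (92.0 to 100.1) against 79.3 (75.7 to 83.1).

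**Figure D1:**
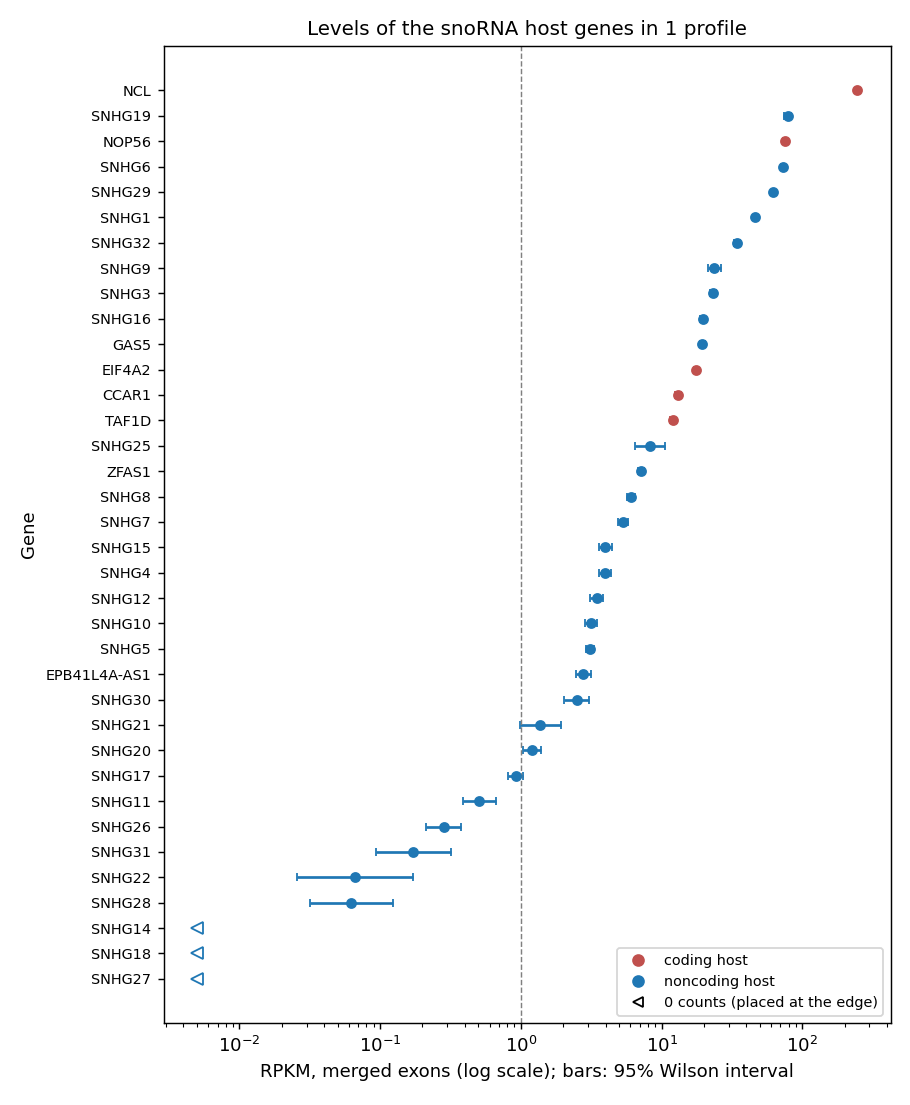
RPKM of the 36 snoRNA host genes on a log axis, with 95% Wilson intervals that cover counting error only. Red points are coding hosts, blue points noncoding hosts, open triangles the 3 genes with 0 counts, and the dashed line marks an RPKM of 1. *NCL* stands alone at 245, *SNHG19*, *NOP56* and *SNHG6* follow between 72.5 and 78.6, and 9 noncoding hosts lie above the lowest coding host.

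Among the noncoding hosts, the order depended on whether length was taken into account. By counts *SNHG29* came first, with 12599 counts or 555 CPM (545 to 564), and it held more counts than any other of the 14157 annotated lncRNA genes of the table. *SNHG1* followed with 185 CPM (179 to 191) and *SNHG6* with 183 CPM (178 to 189), and their intervals overlapped. *SNHG16* had 113 CPM (109 to 118), *GAS5* 96.2 CPM (92.2 to 100.3) and *SNHG3* 94.98 CPM (91.1 to 99.1), of which the last 2 were not separated by their intervals. *SNHG32*, at 62.2 CPM (59.0 to 65.5), and *ZFAS1*, at 59.3 CPM (56.2 to 62.5), were again alike within counting error. In all, 19 of the 30 pairs of neighbours in this order had overlapping intervals, against 0 of 4 among the coding hosts. By RPKM, *SNHG19* came first among the noncoding hosts and among all lncRNA genes, with 78.6 (74.1 to 83.4) from 1097 counts, since its merged exons span only 614 bases. *SNHG6* followed at 72.5 (70.3 to 74.7), then *SNHG29* at 62.0 (60.9 to 63.1), *SNHG1* at 46.5 (45.1 to 47.9) and *SNHG32* at 34.5 (32.8 to 36.4). *SNHG9*, another short gene of 615 bases, reached 23.8 (21.3 to 26.5) from 332 counts. *SNHG3*, which carries both copies of *SNORA73*, a snoRNA of ribosomal RNA processing, had an RPKM of 23.2, *SNHG16* one of 19.6 and *GAS5*, first known as a growth arrest-specific transcript, one of 19.5.

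These 9 genes from *SNHG19* to *GAS5* were the noncoding hosts with an RPKM of at least 10. A further 13 lay between 1 and 10, and these were *SNHG25* (8.28), *ZFAS1* (7.13), *SNHG8* (6.11), *SNHG7* (5.35), *SNHG15* (3.996), *SNHG4* (3.94), *SNHG12* (3.48), *SNHG10* (3.13), *SNHG5* (3.12), *EPB41L4A-AS1* (2.79), *SNHG30* (2.50), *SNHG21* (1.38) and *SNHG20* (1.20). The RPKM of *SNHG21* rested on 33 counts and its interval, 0.982 to 1.94, included 1. The other 9 were under 1. *SNHG17* was nearest to it with 0.917 (0.810 to 1.04), followed by *SNHG11* with 0.506 and *SNHG26* with 0.283. *SNHG31* had 10 counts, *SNHG28* had 8 and *SNHG22* had 4. *SNHG14*, *SNHG18* and *SNHG27* had 0 counts, and a limit of 3 counts of the total corresponds to 0.132 CPM (the Wilson upper bound is 0.169 CPM). *SNHG14* is the long host of the *SNORD115* and *SNORD116* clusters in the imprinted Prader-Willi region of chromosome 15, and the 84 snoRNA genes annotated inside it also had 0 counts in total.

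The locations of the leading hosts are given in hg38 by GENCODE v44. *NCL* lies on the minus strand of chromosome 2 from 231453531 to 231483641 and *NOP56* on the plus strand of chromosome 20 from 2652593 to 2658393. *SNHG29* lies on the plus strand of chromosome 17 from 16438767 to 16480249, *SNHG1* on the minus strand of chromosome 11 from 62851978 to 62855953, and *GAS5* on the minus strand of chromosome 1 from 173858559 to 173868882. *SNHG19* is on the minus strand of chromosome 16 from 2154792 to 2155405 and *SNHG9* on the plus strand of the same chromosome from 1964895 to 1965509. Together the 36 genes occupy 17 chromosomes.

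Noncoding and coding hosts were compared by their medians and sums, with no test, because genes of 1 profile are not replicates. The 31 noncoding hosts had a median of 14.8 CPM and ranged from 0 to 555, and the 5 coding hosts had a median of 108 CPM and ranged from 79.3 to 2183. The median of the coding hosts was thus 7.27 times higher, and 6 of the 31 noncoding hosts exceeded the lowest coding host. Per length, the medians were an RPKM of 3.48 for noncoding and 17.6 for coding hosts, a ratio of 5.06, and 9 noncoding hosts exceeded the lowest coding host. *SNHG19* alone also exceeded *NOP56*, with an overlapping interval. The ratio depends on which hosts are taken. With all 271 protein-coding genes that hold an annotated snoRNA on their strand, the coding median fell to 27.2 CPM and an RPKM of 4.48, which is 1.84 times and 1.29 times the median of the 31 named noncoding hosts. The matching set of all 74 lncRNA genes with a snoRNA on their strand, 30 of them members, had a median of 0.286 CPM and an RPKM of 0.0799. Between these wider sets the ratio of the medians was 95.2 in CPM and 56.1 in RPKM. When members that share 10% or more of their exons with another gene were left out, which leaves 3 coding hosts, the ratio was 27.7 in CPM and 25.3 in RPKM. That sharing includes exon bases under the hosts' own snoRNA genes and removes *SNHG1*, *SNHG9*, *SNHG19* and *SNHG25* for these. For the other hosts removed, among them the coding hosts *EIF4A2* and *TAF1D*, the part under their own snoRNA genes was not separated. The last ratios are therefore no check on reads shared with unrelated genes.

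Summed over the class, the coding hosts had 2837 CPM and the noncoding hosts 1626 CPM, so that the noncoding hosts held 36.4% (36.1 to 36.7) of the 101411 counts of the set. In summed RPKM the order turned, with 435 for noncoding and 362 for coding hosts, or 54.5% in the noncoding class. A single gene decides the first of these values, since without *NCL* the noncoding hosts held 71.3% (70.9 to 71.7) of the counts. The whole set made up 0.446% of all counts in the profile.

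Each gene's share of the set's counts was very uneven. *NCL* held 48.9% (48.6 to 49.2), *SNHG29* 12.4% and *NOP56* 8.32%. *SNHG1* held 4.14%, *SNHG6* 4.10%, *SNHG16* 2.53%, *EIF4A2* 2.42%, *GAS5* 2.15%, *TAF1D* 2.15%, *SNHG3* 2.13% and *CCAR1* 1.78%. *SNHG32* held 1.39%, *ZFAS1* 1.33% and *SNHG19* 1.08%. Shares between 0.1% and 1% were those of *SNHG8* (0.905%), *SNHG5* (0.881%), *SNHG7* (0.587%), *SNHG4* (0.394%), *SNHG10* (0.382%), *SNHG15* (0.353%), *SNHG12* (0.332%), *SNHG9* (0.327%), *EPB41L4A-AS1* (0.268%), *SNHG17* (0.245%) and *SNHG20* (0.164%). *SNHG30* (0.0907%), *SNHG25* (0.0631%), *SNHG11* (0.0513%), *SNHG26* (0.0473%), *SNHG21* (0.0325%), *SNHG31* (0.0099%), *SNHG28* (0.0079%) and *SNHG22* (0.0039%) held less, and *SNHG14*, *SNHG18* and *SNHG27* held 0%. Within the coding class *NCL* took 76.9% of the counts and *NOP56* 13.1%. Within the noncoding class *SNHG29* took 34.1% (33.6 to 34.6), the 3 highest genes together 56.7% and the 6 highest 75.4%.

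In summed RPKM the shares were flatter. *NCL* fell to 30.7% of the set, and *SNHG19*, with 1.08% of the counts, held 9.87%. *NOP56* had 9.41%, *SNHG6* 9.09%, *SNHG29* 7.78%, *SNHG1* 5.84%, *SNHG32* 4.33%, *SNHG9* 2.98% and *SNHG3* 2.91%. *SNHG16* and *GAS5* had 2.46% and 2.45%, *EIF4A2* 2.21%, *CCAR1* 1.64%, *TAF1D* 1.51% and *SNHG25* 1.04%. *ZFAS1* followed with 0.895%, and the other members held less.

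**Figure D2:**
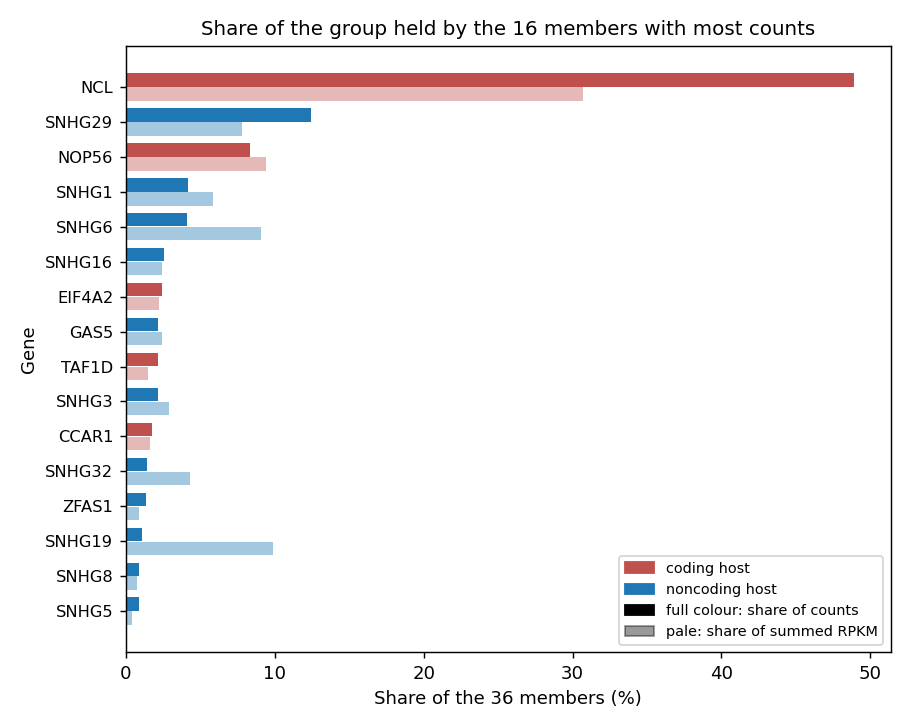
Share of the 36 snoRNA host genes held by each of the 16 members with most counts, in percent, with full colours for counts and pale colours for summed RPKM. Red bars are coding and blue bars noncoding hosts. *NCL* holds 48.9% of the counts and 30.7% of the summed RPKM, and *SNHG19* moves from 1.08% to 9.87%.

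Because RPKM rests on gene length, the levels were also computed with the length of the canonical transcript, which is the isoform that the annotation marks as representative. Merged exons exceeded the canonical transcript by a median factor of 1.86 in noncoding and 2.59 in coding hosts. The factor was 20.2 in *SNHG29*, 11.6 in *SNHG16*, 11.5 in *SNHG20*, 9.62 in *SNHG17* and 9.58 in *SNHG5*. With the shorter lengths *SNHG29* rose from an RPKM of 62.0 to 1252, above *NCL* with 556. *SNHG16* reached 227, above *NOP56* with 194, while *SNHG1* had 159, *GAS5* 125 and *SNHG19* 123. Of the lower coding hosts, *TAF1D* had 58.8, *EIF4A2* 57.2 and *CCAR1* 17.0. At the low end *SNHG17* (8.82), *SNHG11* (2.13) and *SNHG26* (2.10) passed an RPKM of 1. The noncoding share of the summed RPKM rose to 71.9%, and the ratio of the coding to the noncoding median was 7.42 instead of 5.06. Across the 36 genes the Spearman correlation of the 2 scales was 0.925, which is across genes of 1 profile that share the same counts.

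**Figure D3:**
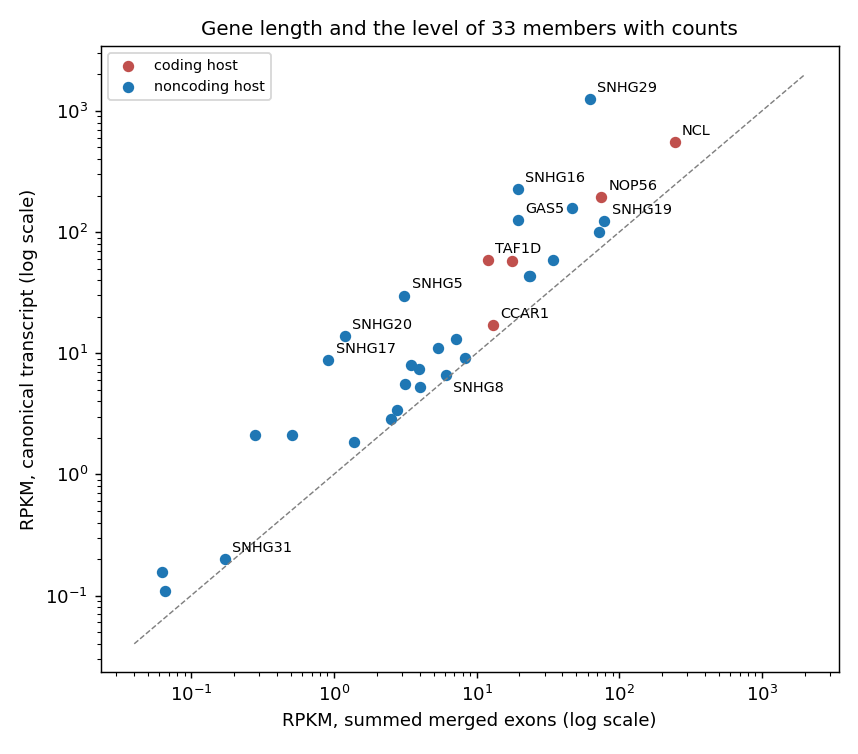
RPKM of the 33 members with counts, from merged exons on the horizontal and from the canonical transcript on the vertical axis, both on log scales, with equality as the dashed line. *SNHG29* lies farthest above the line, at 62.0 and 1252, and *SNHG8* (6.11 and 6.55) lies close to it.

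Counts that fall on exons of several genes can be left unassigned or given to another gene. The rule used for such reads is not given in the sources used here. In GENCODE v44, 13 of the 36 hosts shared 10% or more of their merged exons with another gene of the same strand. The snoRNA genes inside a host were counted among these other genes. The shares were 90.8% for *SNHG28*, 72.9% for *SNHG21*, 39.7% for *SNHG25*, 29.1% for *SNHG32*, 20.7% for *SNHG9*, 15.4% for *SNHG1*, 14.0% for *SNHG4*, 13.7% for *SNHG5*, 13.5% for *SNHG19*, 11.9% for *TAF1D*, 10.96% for *SNHG3*, 10.7% for *SNHG20* and 10.5% for *EIF4A2*. In *SNHG1*, *SNHG9* and *SNHG19* the shared bases equal in number the bases of GENCODE snoRNA genes annotated inside them. In *SNHG25* they equal in number only those of the snoRNA entries that overlap its canonical exons, without the intronic *SNORD104*. All shares are of exon bases in GENCODE v44, not of reads, and the counting used release 25. The level of these 13 genes is therefore uncertain to an unknown extent. How many reads were lost or moved by this sharing was not tested. *GAS5*, *SNHG29* (2.41%), *NCL* (2.43%) and *SNHG16* (2.60%) shared little or nothing. The snoRNAs of *GAS5* have no GENCODE entry and so did not enter its value.

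Set against other lncRNA genes, the noncoding hosts were abundant. Of the 31, 26 had at least 10 counts and 22 an RPKM of at least 1, against 8.46% and 3.06% of all 14157 lncRNA genes. The 5 coding hosts passed both limits, as 62.8% and 44.6% of all protein-coding genes did. Of the 271 protein-coding genes with a snoRNA on their strand, 80.8% had at least 10 counts and 66.4% an RPKM of at least 1. Of the 74 lncRNA genes with a snoRNA on their strand, these shares were 45.9% and 32.4%, below those of the named noncoding hosts. The noncoding hosts held 26.4% (26.2 to 26.6) of all lncRNA counts. They included 6 of the 10 lncRNA genes with most counts, namely *SNHG29*, *SNHG1*, *SNHG6*, *SNHG16*, *GAS5* and *SNHG3*, and 7 of the 10 with the highest RPKM. These shares describe a set that annotators had named as hosts.

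**Figure D4:**
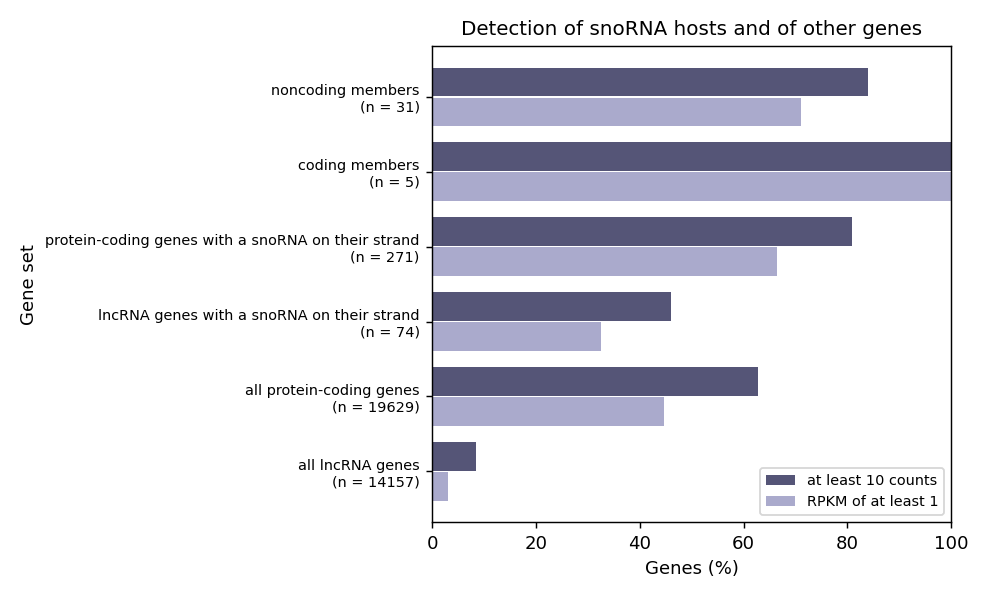
Percentage of genes with at least 10 counts (dark bars) and with an RPKM of at least 1 (pale bars) in 6 sets of genes. The named noncoding hosts reach 83.9% and 71.0%, the 271 protein-coding genes with a snoRNA 80.8% and 66.4%, and the 74 lncRNA genes with a snoRNA 45.9% and 32.4%, whereas all lncRNA genes reach 8.46% and 3.06%.

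The snoRNAs themselves were nearly without reads, in contrast to their hosts. Apart from *SNHG14*, GENCODE v44 places 82 snoRNA entries at 77 distinct loci inside the hosts and on their strand. In the table, 67 of these entries had 0 counts, 15 had 1 or more and 3 had at least 10, and all of them summed to 121 counts against 101411 for the hosts. Over the whole profile the 990 annotated snoRNA and small Cajal body RNA genes summed to 654 counts, or 0.0029% of the total. Mature snoRNAs carry no poly(A) tail, and the libraries were made by poly(A) selection from RNA purified on columns. Some of these entries also lie within the merged exons of their host, where a read falls on both genes. The effect of this overlap on the snoRNA counts was not tested. How much snoRNA the cells held cannot be read from these rows. RefSeq adds 14 entries that the GENCODE table does not hold, among them all 11 in *GAS5*, 2 in *SNHG1* and 1 in *SNHG5*, which raises the total to 96 entries at 91 loci, and no counts were matched to these.

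The entry with most reads was *SNORD104*, with 47 counts against 64 for its host *SNHG25*. Per length this corresponds to an RPKM of 29.6 for the snoRNA and 8.28 for the host. *SCARNA13*, a small Cajal body RNA in the first intron of *SNHG10*, had 30 counts against 387 and an RPKM of 4.80 against 3.13. *SNORD99* in *SNHG12* had 8 counts against 337 and an RPKM of 4.76 against 3.48. These 3 were the entries whose RPKM exceeded that of the host. *SNORD104* and *SNORD99*, at 70 and 74 bases, are no longer than the 75-base reads, which makes their RPKM imprecise, whereas *SCARNA13* has 275 bases. *SNORA73B* had 15 counts against 2158 in *SNHG3*, and *SNORD12B* 6 counts against 1347 in *ZFAS1*. In the coding hosts *SNORA75* of *NCL* and *SNORA51* of *NOP56* had 1 count each, and the other 20 entries had 0.

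The hosts differed widely in how many snoRNAs they carried. Counting GENCODE and RefSeq entries, *GAS5* had 11, *SNHG1* had 9, *TAF1D* had 8, and *NOP56*, *EIF4A2*, *SNHG12* and *SNHG17* had 5 each. By contrast, 14 noncoding hosts and *CCAR1* carried 1. Relative to the canonical transcript, 83 of the 96 entries were intronic, all 8 of *TAF1D* lay outside it, and 5 overlapped its exons, among them *SNORA9*, the only entry of *SNHG15*. The last 2 groups have no distance to a next exon below. Of the 6 noncoding hosts with the highest RPKM, *SNHG19* and *SNHG32* carried 2 entries each, *SNHG29* 3, *SNHG1* 9, and *SNHG6* and *SNHG9* 1 each. *NCL* carried 3. The 2 entries of *SNHG19* overlap at the same locus, as do 2 of the 5 in *SNHG12*. Without *SNHG14*, the Spearman correlation between the number of entries and RPKM over 30 noncoding hosts was 0.417, given as a description of genes that share 1 library. Abundant hosts with 1 entry, such as *SNHG6* with 72.5, and a low host with 5 entries, *SNHG17* with 0.917, both occurred.

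In *GAS5*, 10 of the 11 introns of the canonical transcript held a box C/D snoRNA, and in *SNHG1*, 9 of 10. The position within the intron was also regular. In the 9 introns of *SNHG1* the snoRNA ended 69 to 210 bases before the next exon, and 8 of the 10 in *GAS5* ended 64 to 128 bases before it. Over all hosts other than *SNHG14*, 36 of 47 intronic box C/D entries lay 60 to 150 bases from the next exon of the canonical transcript, with a median of 94.0, and 4 lay more than 1000 bases away. Among the 28 intronic box H/ACA entries, 7 lay within 60 to 150 bases, with a median of 302. The longer box H/ACA distances were those of the noncoding hosts, with a median of 552 for 22 entries against 93.0 for 39 box C/D entries. In the coding hosts the medians were 94.5 for 6 box H/ACA entries and 112 for 8 box C/D entries. Entries that overlap at the same locus were counted separately. Over the 83 intronic entries, the intron that held the entry had a median length of 481 bases, and an intron with several entries was counted once for each. Distances depend on the isoform, and *SNORD65* and *SNORD1A* are followed by the next canonical exons of *SNHG29* and *SNHG16* only after 29003 and 52212 bases.

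**Figure D5:**
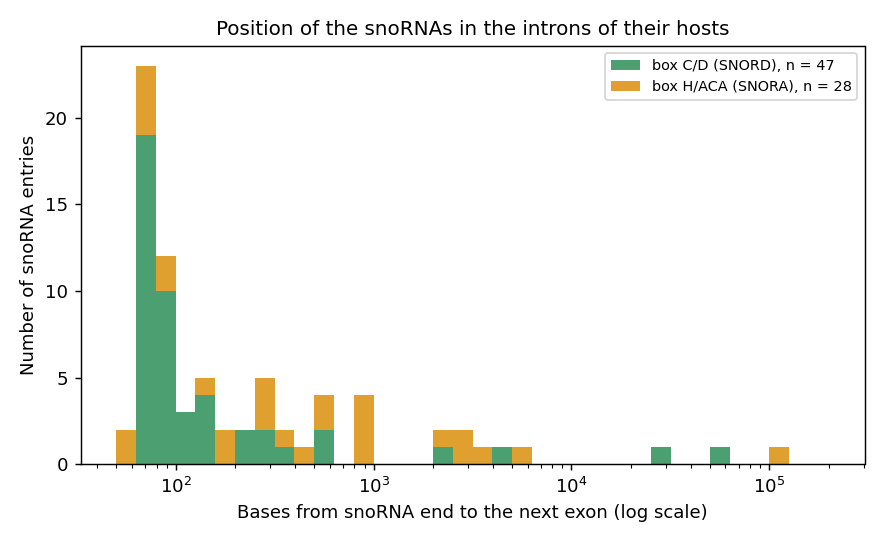
Number of snoRNA entries by the distance, in bases on a log axis, from the end of the snoRNA to the next exon of the canonical host transcript, for 47 box C/D entries (green) and 28 box H/ACA entries (orange, stacked on them). Most box C/D entries gather at 60 to 150 bases. The box H/ACA entries of noncoding hosts spread over longer distances, up to 114728 bases, whereas those of coding hosts reach at most 274.

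The annotated starts of the noncoding hosts were searched for a TOP tract, taken here as a C at the first base followed by at least 4 pyrimidines (C or T) on the strand of the gene. The next sequences are the first 30 bases of the canonical transcripts in hg38, all exonic, with the pyrimidine run in capitals, for 3 of the 4 noncoding hosts that met the definition and for 3 abundant ones that did not, as a contrast.
*SNHG29* (chromosome 17, first base 16439037, plus strand): CTTTTCattcccgttgttatggaggtaggc
*GAS5* (chromosome 1, first base 173867989, minus strand): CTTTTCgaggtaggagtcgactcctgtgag
*ZFAS1* (chromosome 20, first base 49278642, plus strand): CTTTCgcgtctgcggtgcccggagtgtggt
*SNHG1* (chromosome 11, first base 62855922, minus strand): ggcatggtatttaatcgtctccccggggag
*SNHG16* (chromosome 17, first base 76557775, plus strand): gaggtcggccgcgtggctggaagacatggc
*SNHG19* (chromosome 16, first base 2155405, minus strand): agaggtgggacagtttctataaaagcttga

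*SNHG29* and *GAS5* began with the same 6 pyrimidines. In all, 4 of 31 noncoding hosts (12.9%) met the definition at the canonical start, against 2.52% of all lncRNA genes. Of the 5 coding hosts *EIF4A2* and *TAF1D* met it, with runs of 6 and 11, against 4.63% of all protein-coding genes. When any annotated start of the gene was allowed, 18 of 31 noncoding hosts met it, among them *SNHG1*, *SNHG16*, *SNHG3* and *SNHG5*, against 6.10% of lncRNA genes. The noncoding hosts, however, have a median of 9 annotated starts and lncRNA genes in general 1. Within 5 bases of the canonical start, 8 of 31 (25.8%) met the definition against 18.4% of lncRNA genes. An annotated start may lie some bases from the true one, so a gene without a match is not shown to lack the tract.

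The mRNAs of proteins that package and mature snoRNAs were present in the same profile, in which protein was not measured. The genes of all 8 core proteins of the snoRNPs had an RPKM above 1, with a median of 76.2. In the box C/D class, *FBL*, the methyltransferase fibrillarin, had an RPKM of 257, *SNU13* had 81.9, *NOP58* 77.4 and *NOP56*, itself a host, 75.0. In the box H/ACA class, *NHP2* had 142, *NOP10* 57.6, *DKC1*, the pseudouridine synthase dyskerin, 22.9 and *GAR1* 18.4. The 10 assembly factors ranged from 0.335 for *NOPCHAP1* to 105 for *RUVBL2*, an ATPase shared with other complexes, with a median of 3.37, and 9 of them had an RPKM of at least 1. The 10 factors of nonsense-mediated decay ranged from 2.01 for *SMG6*, the endonuclease of the pathway, to 23.2 for *UPF1*, its central helicase, with a median of 6.05. With merged exon lengths *NCL*, at 245, was thus within the range of the core protein genes, as were the leading noncoding hosts *SNHG19*, *SNHG6*, *SNHG29*, *SNHG1* and *SNHG32*. With canonical lengths the core genes ranged from 35.6 (*GAR1*) to 488 (*FBL*). On that scale *NCL*, at 556, and *SNHG29*, at 1252, lay above all of them, and the other named hosts stayed within the range.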

How the data were processed

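The authors mapped single-end reads to hg38 with ContextMap and BWA and counted them per gene, by strand, with featureCounts and GENCODE release 25. The deposited table holds raw counts without normalization for 12 columns, which were identical in the table analysed here and were used as 1 profile through the column labelled DMSO_Rep1. As a check of the code only, 1 read was added to each of 200 genes in a copy of a column, and the comparison of columns found all 200. The planned edgeR fit was not run. The members and gene lists were chosen with earlier results of these data known. All members are named, as are all core snoRNP proteins, the extremes of the other lists and the snoRNA entries with at least 10 counts.

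Identifiers were matched without version to GENCODE v44, for 56948 of 58037 rows and 99.8% of the counts. CPM is relative to the column total of 22720718, and RPKM uses v44 merged exon lengths, which differ from those of release 25. Limits were 10 counts and an RPKM of 1. A count of 0 allows up to 3 counts of the total. Sequences were read from hg38, at RefSeq (GRCh38.p14) positions where GENCODE has no entry (RefSeq entries carry no strand here and were read on that of the host). Python 3.11.15, pandas 2.3.3, scipy 1.17.1 and pysam 0.24.0 were used, and the functions were tested on constructed inputs. Other lengths, filters, host sets and starts were tried as alternatives.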

Additional observations from a re-analysis of the deposited data

How the results depend on the processing

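No paired analysis was possible because the columns did not differ, and leaving out replicates was not run for the same reason. The ratio of the coding to the noncoding median stayed above 1 under each alternative run. In CPM it was 7.27, and it became 6.23 with members of at least 10 counts, 7.33 with noncoding members that hold a GENCODE snoRNA, 1.84 with all 271 protein-coding hosts and 6.92 without the highest member of each class. In RPKM it was 5.06, and these settings gave 3.77, 5.32, 1.29 and 4.64, while canonical lengths gave 7.42. Keeping members that share under 10% of their exons, an alternative chosen after seeing the data, gave 27.7 in CPM and 25.3 in RPKM, with 3 coding hosts left. The sharing in that filter includes the hosts' own snoRNA genes. Taking all lncRNA and all protein-coding genes with a snoRNA, also chosen after seeing the data, gave 95.2 in CPM and 56.1 in RPKM. The noncoding share of 36.4% of the counts became 54.5% in summed RPKM, 62.1% without the highest member of each class and, chosen after seeing the data, 71.3% without *NCL*. Counts of detected members stayed within 1.5 times, with 33 at 1 count and 30 at 20 counts instead of 31, and 30 with canonical lengths or a CPM of at least 1 instead of 27 for an RPKM of at least 1. The 4 noncoding hosts with a pyrimidine start became 18 with any annotated start and 8 within 5 bases, the latter added later, as was the use of RefSeq entries, with 96 instead of 82 snoRNAs. At this depth 3 counts correspond to 0.132 CPM, and the intervals of members below 10 counts that are neighbours in the order overlap. The interval of *SNHG28* (0.178 to 0.695 CPM) lies above the upper bound of the members with 0 counts (0.169 CPM).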
